A study of Mus musculus with 2 samples.

Results

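Pitx1 and Pitx3 are the homeobox genes described here, 2 of 21670 protein-coding genes on chromosomes 1 to 19 and X of the mouse. Every open-chromatin element was given to the protein-coding transcription start site (TSS) nearest its midpoint, and the elements nearest a start of Pitx1 or Pitx3 were kept. The rule used no measured value, though the genes were proposed with earlier results of these data in view. The material was facial prominence tissue, the outgrowths that form the face, from healthy B6NCrl embryos of day 11.5 with both sexes pooled. It was mapped by DNase-seq, in which the nuclease DNase I cuts open chromatin and the cut ends are sequenced. The series held 2 libraries of this 1 group, labelled biological replicates 1 and 2. There was no second condition, so the results are descriptions of these libraries with no test, and the values of replicate 1 and replicate 2 stand in place of an error.

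Pitx proteins are transcription factors of the bicoid class, whose DNA-binding homeodomain recognises TAATCC, where most other homeodomains prefer sites built on TAATTA. Pitx1 is known from the oral ectoderm, the first pharyngeal arch and its jaw derivatives, the pituitary and the hindlimb, where it gives the limb its identity. Pitx3 is known from the lens and from the dopamine neurons of the midbrain, with a further role in muscle. DNase-seq shows open DNA and measures neither transcription nor protein. In a mixed tissue, fewer cells with an open site and a less open site in every cell cannot be told apart.

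Each library came with a list of peaks, each 150 bp wide, and of hotspots, the wider enriched regions around them. A peak carries the authors' own value, called strength here, a whole number of unknown scale. Replicate 1 had 209299 peaks with a median strength of 16, and replicate 2 had 219061 with a median of 42. Strengths were therefore ranked within a library and not compared as levels between libraries. A peak within 1 kb of a start counted as a promoter peak and any other as distal. A peak was called shared where the other library had a peak over at least 75 bp of it, which held for 41.1% of all peaks of replicate 1 and 38.5% of those of replicate 2. The sites below are given by their position in replicate 1 and on build mm10.

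The sequences of 4 shared sites open the description, since they hold the strongest site of each gene and the bicoid-class letters found outside untranslated exons. All are on the plus strand of GRCm38, the same build as mm10, and both genes lie on the minus strand. In the first pair, the strongest promoter site of Pitx3 and the strongest distal site of Pitx1, capitals mark E-boxes (CANNTG, the core bound by helix-loop-helix factors). In the second pair, an upstream and an intronic site of Pitx1, capitals mark TAATCC, read here on the other strand as GGATTA.
Pitx3 promoter, chr19:46148476-46148625: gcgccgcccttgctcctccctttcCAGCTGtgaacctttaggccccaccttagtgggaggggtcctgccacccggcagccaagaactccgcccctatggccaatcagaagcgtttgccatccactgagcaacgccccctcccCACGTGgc
Pitx1 upstream, chr13:55963356-55963505: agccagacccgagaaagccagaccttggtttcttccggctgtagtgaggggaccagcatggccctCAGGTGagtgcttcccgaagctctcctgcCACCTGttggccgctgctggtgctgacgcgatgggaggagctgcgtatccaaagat
Pitx1 upstream, chr13:55981196-55981345: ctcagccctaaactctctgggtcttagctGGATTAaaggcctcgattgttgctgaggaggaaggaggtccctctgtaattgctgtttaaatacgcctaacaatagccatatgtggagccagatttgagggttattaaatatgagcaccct
Pitx1 intron, chr13:55827576-55827725: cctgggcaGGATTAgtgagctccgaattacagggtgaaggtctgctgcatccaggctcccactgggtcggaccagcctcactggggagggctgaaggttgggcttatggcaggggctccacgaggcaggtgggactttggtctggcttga

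Pitx1 (ENSMUSG00000021506.7) spans positions 55825051 to 55836192 of chromosome 13, a gene of 11.1 kb with annotated starts at 55836192 and, 4.77 kb farther in, at 55831425. It held 42 peaks in replicate 1 and 57 in replicate 2, against medians of 4 and 5 peaks per gene. Of all genes, 95.3% had fewer in replicate 1 and 97.9% had fewer in replicate 2. In replicate 1, 21 of the 42 were shared (50%), and in replicate 2, 20 of the 57 (35.1%). The shared share thus lay above the 41.1% of all peaks in one library and below the 38.5% in the other. Of the 21 unshared peaks of replicate 1, 9 did overlap a peak of replicate 2, by 30 to 70 bp, and 4 of these fell short of the limit with 70 bp. The other 12 had no overlap.

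**Figure D1:**
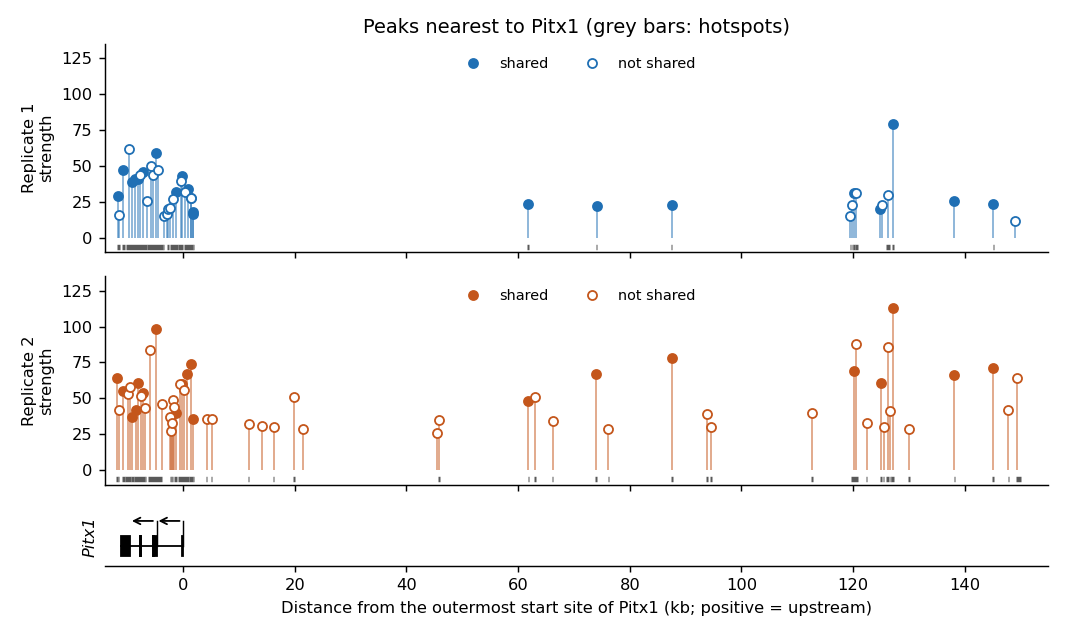
Peaks nearest to Pitx1 in replicate 1 (top, blue) and replicate 2 (middle, orange), plotted by distance in kb from the outermost start (positive is upstream) against the authors' strength, with the exons of the gene at the bottom (arrows are starts). Filled points are shared peaks and open points are not, and grey bars are the hotspots nearest to the gene. Peaks crowd over the gene, replicate 1 has none from 2 to 60 kb upstream where replicate 2 has 9, and the tallest upstream point of both libraries stands 127 kb away.

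The starts of Pitx1 were open in both libraries, and the inner start had the stronger peak. The peak at 55831256 to 55831405, 0.094 kb inside that start in a 5′ untranslated exon, had the same coordinates in both libraries, with a strength of 59 in replicate 1 and 98 in replicate 2. Among the promoter peaks of its own library it ranked at percentile 66.1 and 67.8. At the outer start, the peak at 55835876 to 55836025 had strengths of 43 and 60. Of its 150 bp, 38 lay in an exon of Pitx1, and it also overlapped an exon of the long noncoding gene Gm28760. The third, at 55836896 to 55837045, lay 0.779 kb upstream of the outer start with strengths of 34 and 67. The site at the inner start thus sat somewhat above the middle of the promoter peaks of these libraries, where the medians were 40 and 70. The others sat near or below the middle, at percentiles 52.9 and 41.6 for the outer start and 42.8 and 47.4 for the third. Of all genes, 64.9% had at least 1 shared promoter peak and 88.6% had fewer than the 3 of Pitx1. That number was 1, the median of all genes, with only the 50000 strongest peaks per library or with the GENCODE basic transcripts, which lack the outer start, and 8 with a window of 2500 bp.

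Open chromatin covered most of the Pitx1 gene. Hotspots covered 89.4% of the gene body in replicate 1 and 80.4% in replicate 2, where the median over 20114 genes of at least 2 kb was 2.86% and 3.78%. A lower coverage was found in 99.6% and 99.5% of these genes. The standing was alike among the 7703 genes of 0.5 to 2 times its length, of which 99.7% were lower in both libraries. The widest hotspot of replicate 1 ran over 3.74 kb, from 55825979 to 55829715, and that of replicate 2 over 2.58 kb, from 55829820 to 55832402. Of the 26 Pitx1 hotspots of replicate 1, 19 were shared (73.1%, background 47%), and of the 46 of replicate 2, 26 were (56.5%, background 41.4%).

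**Figure D2:**
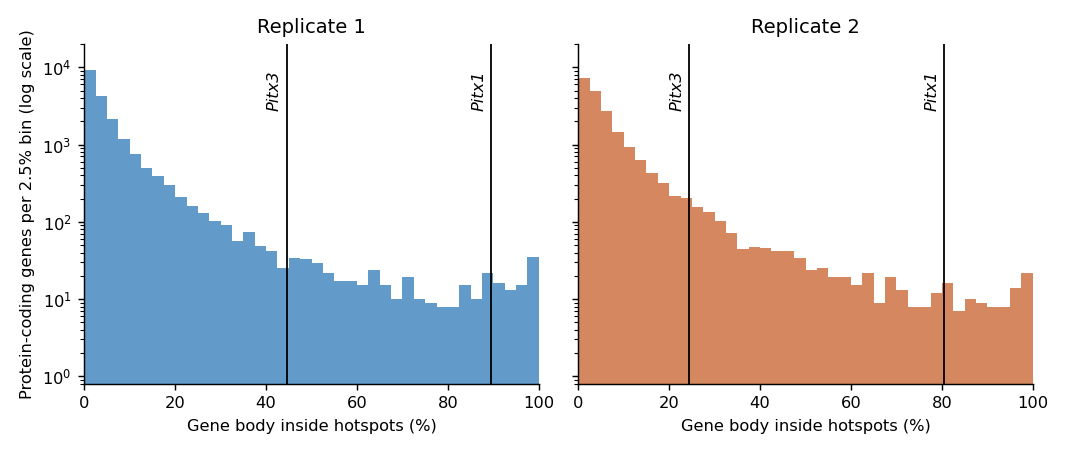
Share of each gene body inside hotspots (x axis, percent) for 20114 protein-coding genes, as the number of genes per 2.5% bin on a log axis, for replicate 1 (left) and replicate 2 (right). Black lines mark Pitx1 (89.4% and 80.4%) and Pitx3 (44.5% and 24.4%), with Pitx1 in the far right tail of both.

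Peaks stood close together over the gene and its first 2 kb upstream. Replicate 1 had 28 peaks there, with strengths from 15 to 62 and a median of 33, and replicate 2 had 26, from 27 to 98 with a median of 52.5. Of these, 13 of replicate 1 and 12 of replicate 2 were shared, since the replicate 1 peaks at 55837876 and 55837896 overlapped the same replicate 2 peak. In the introns, shared sites at 55826996, 55827576, 55828036, 55828896 and 55834876 had strengths of 39, 41, 41, 46 and 32 in replicate 1. In replicate 2 the same sites had 37, 42, 61, 54 and 40. The site at 55825356 in the 3′ untranslated region had 47 and 55, and the site at 55824356, just past the 3′ end, had 29 and 64. Upstream of the outer start, the site at 55837556 had 28 and 74 and the pair at 55837876 and 55837896 had 17 and 18 against 36.

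**Figure D3:**
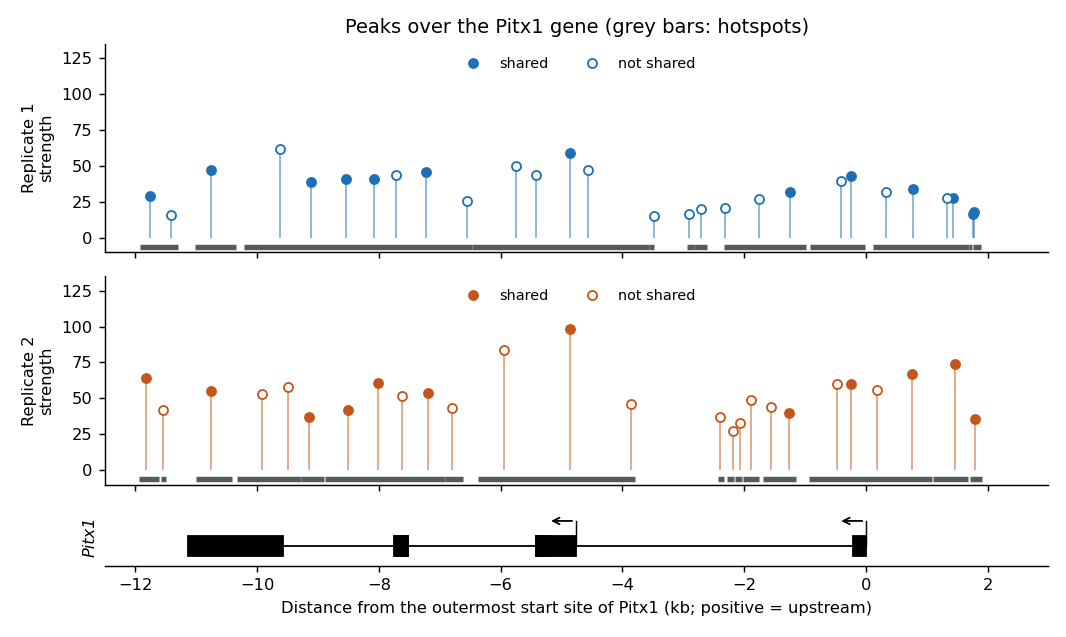
The Pitx1 gene at closer range, with the authors' strength of each peak against distance in kb from the outermost start for replicate 1 (top) and replicate 2 (middle), and exons and starts at the bottom. Grey hotspot bars cover most of the gene, with breaks between the starts (the longest in replicate 2, from 55832402 to 55833768), and the peak at the inner start (59 and 98) is the tallest shared one in both libraries.

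A second set of Pitx1 sites lay far upstream. The stretch from 2 to 60 kb held no peak of replicate 1 and 9 of replicate 2, with strengths of 26 to 51 and none shared. Beyond 60 kb, 3 scattered peaks of replicate 1, all shared, and 9 of replicate 2 came first. They were followed by a cluster from 120 to 149 kb with 11 and 13 peaks, of which 5 were shared in each. The nearest shared upstream site, at 55897936, had strengths of 24 and 48, that at 55910176 had 22 and 67, and that at 55923616, with identical coordinates in both, had 23 and 78. The strongest distal site of Pitx1 was the E-box sequence printed above, 127 kb upstream, with a strength of 79 in replicate 1 and 113 in replicate 2. It ranked at percentile 99.3 and 98.8 of all distal peaks and lay in an exon of Gm47071, a long noncoding gene on the other strand that runs through the whole upstream flank. Around it stood shared sites at 55956296 (31 and 69), 55961016 (20 and 61), 55974236 (26 and 66) and 55981196 (24 and 71). Replicate 2 had peaks of 88 at 55956616 and 86 at 55962396 that each overlapped a replicate 1 peak by 70 bp and were not counted as shared.

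Counted together, Pitx1 had 18 shared distal peaks, 10 over the gene and its first 2 kb and 8 farther upstream. Fewer were found in 97.7% of genes, whose median was 1. The stretch of genome nearest to a Pitx1 start was 178 kb, and sharing out all 61871 shared distal peaks by such stretches would give it 4.18. The observed number was 4.31 times that, and 92.6% of genes had a lower ratio. Of all genes, 44% were above the number their stretch predicts. With only the 50000 strongest peaks per library kept, the excess was not found, with 1 shared distal peak left and a ratio of 0.724. With the starts of noncoding genes also in use, 6 shared distal peaks remained nearest to Pitx1 (ratio 3.2), and being nearest does not show that a site acts on it.

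The gene and its far flank ranked differently in the 2 libraries. Over the gene and its first 2 kb, the median percentile among all peaks of the library was 81.4 in replicate 1 and 66.3 in replicate 2, and 11 of 13 shared peaks ranked higher in replicate 1. The 13 count the overlapping pair at 55837876 and 55837896, with the same replicate 2 peak, as 2, and both ranked higher in replicate 1. Farther upstream the medians were 65.8 and 76.4, and 2 of 8 ranked higher in replicate 1. Over all 85950 shared peaks the medians were 76.6 and 77.1, with 53.5% higher in replicate 1. The gap was widest in the introns, where the site at 55826996 stood at percentile 81.4 in replicate 1 and 41.8 in replicate 2. The strongest sites did not part in this way: that at the inner start stood at 91.1 and 90.8, and that 127 kb upstream at 95.4 and 94.5. Hotspots went the same way, since 6 of 12 over the gene and its first 2 kb were at the ceiling of 100 for −log10 q in replicate 1 and 3 of 16 in replicate 2. Farther upstream the numbers were 1 of 14 and 8 of 30. These numbers also depend on how each library divides its hotspots. The ceiling hotspot of replicate 1 from 55825979 to 55829715 overlapped several of replicate 2, with values of 2.59 to 6. The ceiling hotspot of replicate 2 from 55835263 to 55837287 overlapped 2 of replicate 1, both at the ceiling. Of all hotspots, 29.4% in replicate 1 and 35.2% in replicate 2 were at the ceiling, so that the upstream share lay below this in both libraries. The edges of these stretches were set after the values were seen, and with 1 library of each the difference has no replicate of its own.

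**Figure D4:**
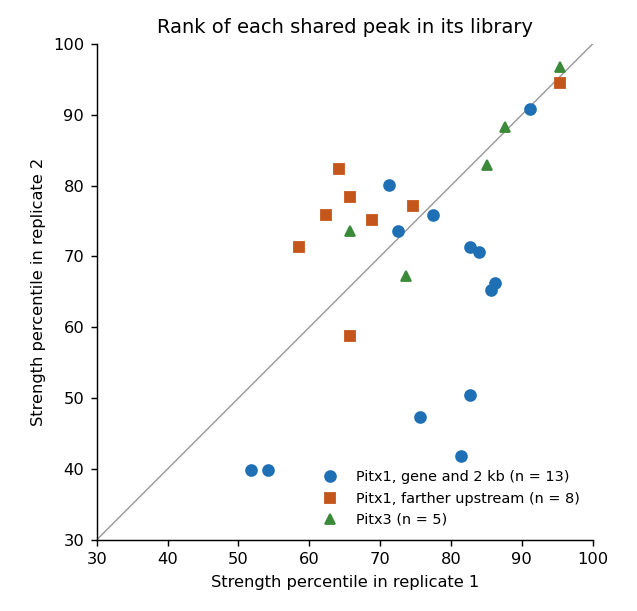
Percentile of strength among all peaks of replicate 1 (x axis) and of replicate 2 (y axis) for each shared peak, with the diagonal of equal rank. Blue circles (Pitx1 gene and 2 kb, 11 of 13 below the diagonal) and orange squares (Pitx1 farther upstream, 6 of 8 above it) part to either side, and the green triangles of Pitx3 lie near it.

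Pitx3 (ENSMUSG00000025229.15) spans positions 46135685 to 46148326 of chromosome 19, with annotated starts at 46148326 and, 7.34 kb farther in, at 46140983. It lies in a crowded region, with the start of Gbf1, a regulator of Golgi traffic, 4.18 kb away and that of Elovl3, a fatty acid elongase, 9.09 kb away, and only 14 kb of genome was nearest to a Pitx3 start. It held 19 peaks in replicate 1, where 86.9% of genes had fewer, and 7 in replicate 2, where 57.5% had fewer. The shared peaks numbered 5 in each library, which is 26.3% of those of replicate 1 and 71.4% of those of replicate 2. The shares thus lay on either side of the 41.1% and 38.5% of all peaks.

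The outer start of Pitx3 had the strongest site of both genes in replicate 2, and a strength level with that of the far upstream site of Pitx1 in replicate 1. Its promoter peak at 46148476 to 46148625, printed above and 0.225 kb upstream, had the same coordinates in both libraries and strengths of 79 and 125. It ranked at percentile 77.6 and 84.6 of the promoter peaks, higher than the best promoter peak of Pitx1 in both. The site at 46147676, in the intron behind the first exon, had strengths of 30 and 56, and that at 46141296, in the intron 0.388 kb before the inner start, had 24 and 64. Hotspots covered 44.5% of the gene body in replicate 1 and 24.4% in replicate 2, where 98% and 94.8% of genes were lower.

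The 2 shared distal sites of Pitx3 both overlapped coding exons near the 3′ end. That at 46136496 had strengths of 50 and 91 and that at 46137276 had 45 and 79, at percentiles 93.9 and 91.8 of the distal peaks of replicate 1 and 94.1 and 89.1 of those of replicate 2. They ranked in the top part of the distal peaks in both libraries and stood above every shared distal site over the Pitx1 gene in replicate 2. The stretch nearest to Pitx3 predicted 0.328 shared distal peaks, so that the ratio was 6.09, but on 2 peaks, neither of which had identical coordinates in both libraries. From all peaks of a single library it was 11 in replicate 1 and 2.12 in replicate 2. Of all genes, 96.4% had a lower ratio and 56.1% had fewer shared distal peaks.

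**Figure D5:**
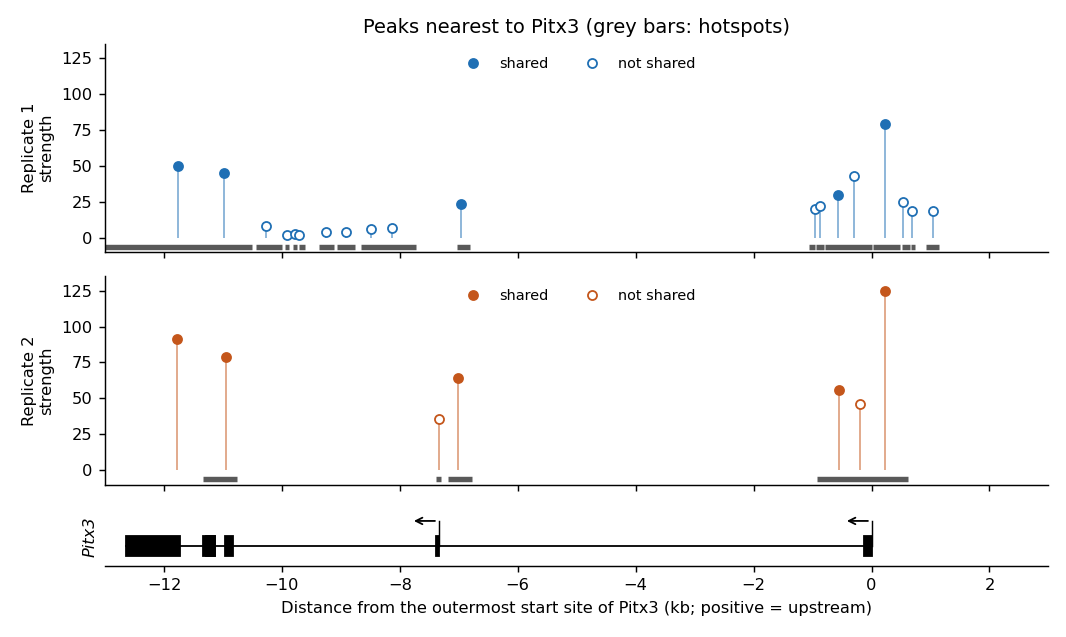
Peaks nearest to Pitx3 in replicate 1 (top) and replicate 2 (middle) by distance in kb from the outermost start against the authors' strength, with exons and starts at the bottom and the hotspots nearest to the gene as grey bars (a replicate 2 hotspot under the leftmost peak was nearest to another start). The shared peaks stand at both starts and over the last exons, and the row of low open points in the intron (strengths 2 to 8) is found in replicate 1 and not in replicate 2.

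The libraries differed most in the Pitx3 intron between the inner start and the last exons. Between 46137976 and 46140265 replicate 1 had 8 peaks with strengths of 2 to 8 and replicate 2 had none. In this stretch 3 unshared hotspots of replicate 1, starting at 46137887, 46139254 and 46139660, were at the ceiling of 100 for −log10 q. Across replicate 1, 32.3% of peaks of strength 8 or less overlapped a hotspot at the ceiling, against 37.2% of stronger peaks. Such weak peaks, of strength 8 or less, made up 30.1% of all peaks of replicate 1 and 0.133% of those of replicate 2, and 0.937% of those of replicate 1 were shared. Without them, the peaks of Pitx3 in replicate 1 would number 11. Replicate 2 had its own peak at the inner start, at 46140916 with a strength of 36, that replicate 1 lacked. Neither library had a peak between the end of the inner start's site at 46141445 and the replicate 1 peak that began at 46147296. Of the 16 hotspots of replicate 1, 6 were shared (37.5%, background 47%), and of the 4 of replicate 2, 3 were (75%, background 41.4%).

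The shared sites were searched for short motifs, the bicoid-class core first. TAATCC on either strand was in 3 of the 18 shared distal peaks of Pitx1 and in 4.62% of all 61871. The 3 were the 3′ untranslated site at 55825356 and the 2 printed above. Of the printed ones, the intronic site held it within the window of replicate 1 but not within that of replicate 2, which began at 55827616. TAATTA was in none of the 18, and in 3.78% of all. E-boxes were in 13 of the 18 (62.6% of all), and ACAANG, the core of SOX factors, in 7 (28.6% of all). AGGNGGC, part of the site of the insulator protein CTCF, was in 4 of the 18 (22.3% of all), among them the strongest upstream site. In the shared peaks of Pitx3 neither homeodomain core was found. Its promoter peaks held an E-box in 2 of 3 (39.9% of all 24079 shared promoter peaks) and AGGNGGC in 2 of 3 (27% of them), and its distal peaks held AGGNGGC in 2 of 2. The shared promoter peaks of Pitx1 held an E-box in 0 of 3 and AGGNGGC in 1 of 3. A match is a description of the letters and no evidence of binding.

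Base composition was given for promoter and distal peaks together, 3 of each gene being promoter peaks. The GC content had a median of 54% over the 13 shared peaks of the Pitx1 gene and its first 2 kb, 52.4% over the 8 farther upstream and 62.7% over the 5 of Pitx3. All shared distal peaks had 50% and all shared promoter peaks 64.7%. Within Pitx1 the range was wide, from 32.7% at the intronic site at 55826996 to 74.7% at the inner start.

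The neighbours of both genes were open at their own starts with exceptions. Beside Pitx1, Catsper3, a sperm calcium channel subunit, lacked a promoter peak in both libraries, and Pcbd2 had one of 86 and 120. On the upstream side H2afy, which encodes the histone variant macroH2A1, started 299 kb away with a promoter strength of 82 and 119 and 13 shared distal peaks where 4.03 were predicted. Tifab beyond it had no promoter peak and 12 shared distal peaks where 1.37 were predicted. Beside Pitx3, Gbf1 had promoter peaks of 95 and 126, Nolc1 of 109 and 141, and Nfkb2, a subunit of NF-kB, of 96 and 119. At Elovl3 the promoter peaks of 10 and 50 were not shared. At Pcbd2 and H2afy the promoter strengths exceeded those of Pitx1 in both libraries.

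By rank of promoter strength in each library and of the numbers of shared promoter and distal peaks, the genes most like Pitx1 among 14054 with a shared promoter peak were Ablim1, Mid1 and Sox21. Their distances were 1.83, 3.24 and 3.35 percentile points, with 20, 17 and 13 shared distal peaks. Those most like Pitx3 were Celsr3, Ptges2 and Alyref2, at 2.04, 2.39 and 3.17 points, each with 3 shared promoter peaks and 2 shared distal ones. The likeness covers these 4 measures in 2 libraries and nothing else.

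Relatives and partners of the Pitx genes were counted against the 64.9% of all genes with a shared promoter peak. Of 18 bicoid-related and other paired-class homeobox genes, 15 had one (83.3%), and those without included Crx and Phox2a, the latter with a promoter peak in replicate 2 only. The median of the list was 10.5 shared distal peaks, and Uncx (32), Otx2 (29) and then Alx4 and Otx1 (13 each) had the most. By count, the 18 of Pitx1 lay above that median and the 2 of Pitx3 below it. Set against the number that each stretch predicts, the list had a median ratio of 2.99. Pitx1 with 4.31 and Pitx3 with 6.09, on 2 peaks, both lay above it. Among the marker lists counted below, facial mesenchyme had a median ratio of 5.35, above that of Pitx1 and below that of Pitx3. The other marker lists had medians from 0.33 to 2.58. Of 13 dental and jaw regulators, 11 had a shared promoter peak (84.6%), with a median of 15 shared distal peaks and the most at Sox2 (42), Lhx8 (24) and Msx1 (22). The exceptions were the signals Bmp4 and Fgf8, each with a promoter peak in both libraries that was not shared. Of 8 limb identity genes, 6 had one (75%, median 10.5), led by Hand2 (31), Fgf10 (19) and Tbx4 (16), a partner of Pitx1 in the hindlimb. The forelimb gene Tbx5 and Hoxc11 had no shared promoter peak, though Tbx5 had a promoter peak in replicate 1.

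The lists for the other tissues of the Pitx genes stood near or below that share. Of 17 oral ectoderm and pituitary genes, 8 had a shared promoter peak (47.1%, median of 2 shared distal peaks). Those without included the pituitary regulators Pou1f1 and Tbx19, the hormone genes Prl, Tshb, Lhb, Fshb and Cga, and the receptor gene Gnrhr. Of these, Pou1f1, Lhb and Cga had a promoter peak in replicate 2 only, and Gnrhr in replicate 1 only. Isl1 (13), Pou1f1 (8) and Neurod1 (7) had the most distal peaks, where 22.6, 5.4 and 2.43 were predicted. Of 12 midbrain dopamine genes, 7 had a shared promoter peak (58.3%, median 7), led by Lmx1b (26), En1 (22) and Foxa2 (22). Those without were Th and Ddc, enzymes of dopamine synthesis, Aldh1a1, En1 and Foxa2. Of these, En1 had a promoter peak in both libraries that was not shared, Foxa2 in replicate 1 only and Aldh1a1 in replicate 2 only. Of 11 lens genes, 7 had a shared promoter peak (63.6%, median 6), led by Maf (32), Pax6 (32) and Sox1 (23). The lens structural genes Mip, Cryaa, Cryab and Bfsp2 had no shared one, though Mip had a promoter peak in replicate 1 and Bfsp2 in replicate 2. Of 6 skeletal muscle regulators, 4 had a shared promoter peak (66.7%, median 2.5), with the most distal peaks at Pax3 (40), Pax7 (10) and Myf5 (3). Myf5 and Myf6 had a promoter peak in replicate 2 only. The distal counts take no account of the stretch nearest to each gene. Maf had 32 where 24.3 were predicted, and Pax6 32 where 5.59 were. The median ratio to the predicted number was 2.32 in the dental and jaw list and 1.55 in the limb list. It was 1.29 in the pituitary, 1.73 in the dopamine, 1.38 in the lens and 1.77 in the muscle list. Over all genes it was 0.742.

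The labelled tissue was set beside markers by the same count. These lists were chosen with earlier results of these data known, so the count is no independent check. Some of the facial mesenchyme genes were also in the paired-class or the dental and jaw list. A shared promoter peak was found at 8 of 8 facial mesenchyme genes, 4 of 7 genes of surface and oral epithelium, 2 of 6 of endothelium and 1 of 5 of macrophages. It was found at 0 of 6 of erythroid cells and 0 of 5 of liver. Of all genes, 64.9% had a shared promoter peak. The low counts depend in part on sharing. Replicate 1 alone had a promoter peak at 8, 4, 2, 2, 1 and 1 genes of these lists, in the same order. Replicate 2 alone had one at 8, 7, 5, 1, 1 and 0. The 64.9% is for shared peaks, and the share of all genes with a promoter peak in a single library was not counted. Pitx1 and Pitx3 are expressed in different cells of an embryo, and from these bulk libraries the cells that held the open sites were not identified.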

How the data were processed

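DNase-seq of 2 libraries of 1 group was analysed. Per the notes deposited with the files, the authors called peaks and hotspots on mm10 and on each library alone. The aligner and peak caller were not given in the sources used here. The deposited peak strength was treated as a score, for ranks and descriptions within a library. The deposited hotspot value was the authors' −log10 q, from 1.30 to a ceiling of 100, which 29.4% and 35.2% of hotspots reached. No read totals were used, so that the depth is unknown, and no interval is given.

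Starts came from protein-coding transcripts of GENCODE M21 (54081 starts, chromosomes 1 to 19 and X; this full set was preferred to the basic one because it holds 2 starts of each Pitx gene), sequences from GRCm38, with Python 3.11.15 and pandas 2.3.3. Functions for the nearest start and overlaps were tested on simulated data. Percentiles are midranks among the peaks of a library. RefSeq promoter sequence was matched for 1 of 2 genes and was not printed.

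The genes, the 7 lists (83 genes) and the 6 marker lists were chosen with earlier results of these data known. Named were the 2 genes, their nearest 2 coding genes on either side, 3 genes of like pattern, every shared peak, and of each list the genes without a shared promoter peak and the 3 with most shared distal peaks. Of these, 2 listed genes are not reported by name here. Unshared peaks named singly, the stretches of the Pitx1 flank and the 8 weak Pitx3 peaks were chosen after their values were seen. Alternatives changed the overlap, promoter window, strength threshold, direction of counting, annotation and library.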

Additional observations from a re-analysis of the deposited data

How the results depend on the processing

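Of 134 alternative values, 100 stayed within 1.5 times the count reported or, for ratios, within 1 SD of the single libraries. For Pitx3 this margin was so wide that a ratio of 0, under the 90% overlap described below, counted as having stayed. With 1 group, 2 libraries and unknown depth, no difference was tested. No paired analysis was possible because the series holds 1 group. Peak positions differed in steps of 20 bp, so that an overlap of 90% of the width keeps only peaks of identical coordinates. It left 3 shared distal peaks of Pitx1 (ratio 2.3 to the number predicted), and 1 shared promoter peak and 0 distal peaks of Pitx3. Under it, genes with a shared promoter peak numbered 6 in the paired-class, 4 in the pituitary and 4 in the dental and jaw list. They numbered 4 in the dopamine, 3 in the lens and 2 in the muscle list. A promoter window of 500 bp left 5 in the pituitary list. The share of all genes with a shared promoter peak was not counted at these settings, so these numbers are no result about the lists. Among the 50000 strongest peaks of each library, Pitx1 had 1 shared promoter peak and 1 distal peak (ratio 0.724), so that its excess of distal peaks was not found there, and Pitx3 had 1 promoter peak (ratio for distal peaks 18.4). A window of 2500 bp gave Pitx1 8 shared promoter peaks. With starts of genes of every biotype, Pitx1 had 6 shared distal peaks (ratio 3.2) and 5 shared hotspots, and Pitx3 5 shared promoter peaks. Counted from replicate 2, Pitx3 had 3 shared hotspots. The full annotation was chosen with both Pitx genes in view, since it holds 2 starts of each. With the GENCODE basic set, used in earlier work on these data and added here after seeing the data, each gene has 1 start, and Pitx1 had 1 shared promoter peak and Pitx3 1 shared distal peak.

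All peaks of 1 library alone, without replicate 1 or without replicate 2, gave Pitx1 6 to 8 promoter peaks, 34 to 51 distal peaks, 26 to 46 hotspots and a ratio of 2.94 to 4.26. For Pitx3 the ranges were 5 to 9, 2 to 10, 4 to 16 and 2.12 to 11. The lists gave 16 to 17 paired-class, 9 to 11 pituitary, 13 dental and jaw, 6 to 7 limb, 9 dopamine, 8 lens and 4 to 6 muscle genes. The share of all genes with a promoter peak in a single library was not counted beside these.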
